A study of Mus musculus with 8 samples.

Results

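The CC chemokines are small secreted proteins that draw leukocytes into tissue, and 10 of their genes are described here: Ccl2, Ccl3, Ccl4, Ccl5, Ccl6, Ccl7, Ccl8, Ccl9, Ccl12 and Ccl22. They were chosen by name, as all probe sets whose only platform gene symbol is one of these 10, which gave 12 probe sets, 2 each for Ccl6 and Ccl9 and 1 for each other gene, of 34945 probe sets with a single symbol. On the gene level they are 10 of 18193 genes measured. The arrays compared 4T1.2 cells, a mouse mammary carcinoma line that metastasises spontaneously to bone, between primary tumours in the mammary gland and spine metastases in Balb/c hosts. The labels describe the material from both sites as isolated tumour epithelial cells. Each group had 4 arrays. The series' design text pairs them, a primary tumour and a metastasis of the same animal sharing a replicate number, so there were 4 mice. The hosts are syngeneic mice with their own immune system, and no age, sorting gate or further treatment was given in the sources used here.

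CC chemokines are named for the adjacent cysteines near their amino end, and they act on seven-pass receptors of the Ccr family. Ccl2, Ccl7 and Ccl12 are monocyte chemoattractants that act through Ccr2, which brings monocytes out of bone marrow and into inflamed tissue and tumours. Ccl3 and Ccl5 act through Ccr1, as do the rodent chemokines Ccl6 and Ccl9, and Ccl4 is a close relative of Ccl3. Ccl22 is made mainly by dendritic cells and macrophages and acts through Ccr4 on regulatory and helper T cells. Transcription of many of these genes is induced through NF-kappaB in activated myeloid cells.

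In the mouse gene order of assembly GRCm38.p6, 9 of the 10 genes lie on chromosome 11 in 2 groups. Ccl2, Ccl7, Ccl12 and Ccl8 lie in 1 group, with Ccl11 between Ccl7 and Ccl12, and Ccl5, Ccl9, Ccl6, Ccl3 and Ccl4 follow each other in the other. Ccl22 lies on chromosome 8 next to Cx3cl1. Promoter windows, from 250 bases before to 50 after the start of transcription, were found in RefSeq's sequences of this build for 6 of the 10 genes, Ccl3, Ccl6, Ccl8, Ccl9, Ccl12 and Ccl22, and Ccl2, Ccl4, Ccl5 and Ccl7 had no entry. The windows of 3 genes that were lower in metastases (Ccl3, Ccl9 and Ccl12, below) and of Ccl22, which did not pass the test, are shown 5′ to 3′ on the gene's strand so that they can be set beside the values. Capitals mark matches to 4 motifs searched on both strands.
Ccl3 (chr11:83649329-83649628, minus strand): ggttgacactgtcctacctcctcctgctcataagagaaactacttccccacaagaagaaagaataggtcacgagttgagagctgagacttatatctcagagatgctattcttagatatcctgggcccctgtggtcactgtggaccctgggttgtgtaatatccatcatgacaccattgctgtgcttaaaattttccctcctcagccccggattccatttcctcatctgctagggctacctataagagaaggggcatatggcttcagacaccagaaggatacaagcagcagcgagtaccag
Ccl9 (chr11:83578587-83578886, minus strand): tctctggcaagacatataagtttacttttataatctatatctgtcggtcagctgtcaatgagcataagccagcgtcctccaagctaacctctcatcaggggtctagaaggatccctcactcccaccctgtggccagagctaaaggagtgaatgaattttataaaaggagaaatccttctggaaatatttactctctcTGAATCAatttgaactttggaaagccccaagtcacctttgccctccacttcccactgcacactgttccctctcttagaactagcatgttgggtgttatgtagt
Ccl12 (chr11:82101595-82101894, plus strand): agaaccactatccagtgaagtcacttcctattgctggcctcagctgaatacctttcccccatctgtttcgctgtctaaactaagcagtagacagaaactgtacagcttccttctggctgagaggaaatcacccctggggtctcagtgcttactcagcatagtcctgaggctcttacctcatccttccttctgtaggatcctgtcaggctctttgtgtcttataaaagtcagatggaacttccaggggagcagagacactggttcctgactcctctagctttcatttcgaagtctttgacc
Ccl22 (chr8:94745434-94745733, plus strand): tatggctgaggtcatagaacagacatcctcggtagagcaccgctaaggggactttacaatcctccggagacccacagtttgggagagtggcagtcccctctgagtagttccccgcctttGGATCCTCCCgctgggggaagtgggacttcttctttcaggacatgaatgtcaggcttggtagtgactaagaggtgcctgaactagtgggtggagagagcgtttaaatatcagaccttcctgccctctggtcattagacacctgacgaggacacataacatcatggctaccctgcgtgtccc
The NF-kappaB motif, GGGA and CC with any 4 bases between them, was matched in 1 of the 6 windows, at bases 120 to 129 of the Ccl22 window on the opposite strand, and in 20.7% of all 32851 promoter windows of this length. The AP-1 motif TGANTCA was matched in 1 of the 6, at bases 198 to 204 of the Ccl9 window, and in 7.81% of all windows. The interferon-stimulated response element, TTTC and TTTC with any 2 bases between them, and the STAT motif, TTC and GAA with any 3 bases between them, were matched in 0 of the 6, and in 3.44% and 8.3% of all windows. No match overlapped another in these windows. A match is a description of letters in the window, and the absence of one says only that these letters are not in it.

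Several features of the arrays touch every value below. The control probe sets for actin and Gapdh dropped from the 3′ to the 5′ end by log2 differences of 1.08 to 1.90 and 1.55 to 2.59 in primary tumours, and by 4.55 to 6.18 and 4.62 to 6.08 on metastasis arrays (exact permutation p = 0.0286 each, two-sided, the smallest that 4 against 4 arrays allow, higher on 4 of 4 metastasis arrays). With the actin drop as a covariate, which is nearly tied to the group, limma left 0 of 18193 genes past the threshold and 2470 at an unadjusted p under 0.05. The folds of all 10 CC chemokine genes stayed below 0 in that fit, from -4.38 for Ccl7 to -0.60 for Ccl9. Of these genes, 1 had an unadjusted limma p under 0.05 there, against 9 without the covariate. The median SE over all genes was 0.74 against 0.23, so the kept sign says little. The labelled cell type was checked against Krt8, a keratin of simple epithelia, which had log2 signals of 13.07 to 13.32 on primary arrays but 7.34, 12.39, 9.80 and 12.97 on metastasis arrays 1 to 4, so that keratin was low on metastasis arrays 1 and 3. Krt18, another keratin, ordered these 4 arrays alike (6.05, 10.95, 8.49 and 11.86). Not every epithelial marker did. Cldn4 had 7.46, 6.63, 6.52 and 7.13 on them, highest on array 1, and Cdh1 had 6.998, 7.89, 6.96 and 5.74, lowest on array 4. These are bulk samples, in which fewer cells of a type and less RNA per cell cannot be told apart.

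The CC chemokine genes were lower in bone metastases in most cases. Of the 10 genes, 6 fell, 0 rose and 4 did not pass the test, by limma on the brightest probe set of each gene with Benjamini-Hochberg adjustment over 18193 genes and a threshold of 0.05. Of all genes, 12.1% were called lower, 9.88% lower by at least 2-fold and 21.8% in either direction. Of the 4466 genes at least as bright as the dimmest of the 10, 21.3% were called lower. The median log2 fold, metastasis minus primary, was -2.04 over the 10 genes and 0.09 over all genes. Every primary array lay above every metastasis array for 7 of the 10 genes, against 14.2% of all genes and 25.1% of those at least as bright. On the probe set level 8 of the 12 fell, against 11.9% of all named probe sets. Without mouse 4, 5 of the 12 probe sets were called. In the gene fit without mouse 4, Ccl2, Ccl3, Ccl4, Ccl7 and Ccl12 were called, and 5.58% of all genes were called lower. Without metastasis arrays 1 and 3, whose keratin was low, 4 of the 10 genes were called lower, Ccl2, Ccl3, Ccl4 and Ccl7. In that fit 8.25% of all genes were called lower. The same 6 genes passed after scaling to the 75th percentile and after quantile normalization, although the first raised the median fold of all genes from 0.09 to 0.30 and turned the split of all calls from 2207 lower and 1768 higher to 1961 lower and 2465 higher.

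**Figure D1:**
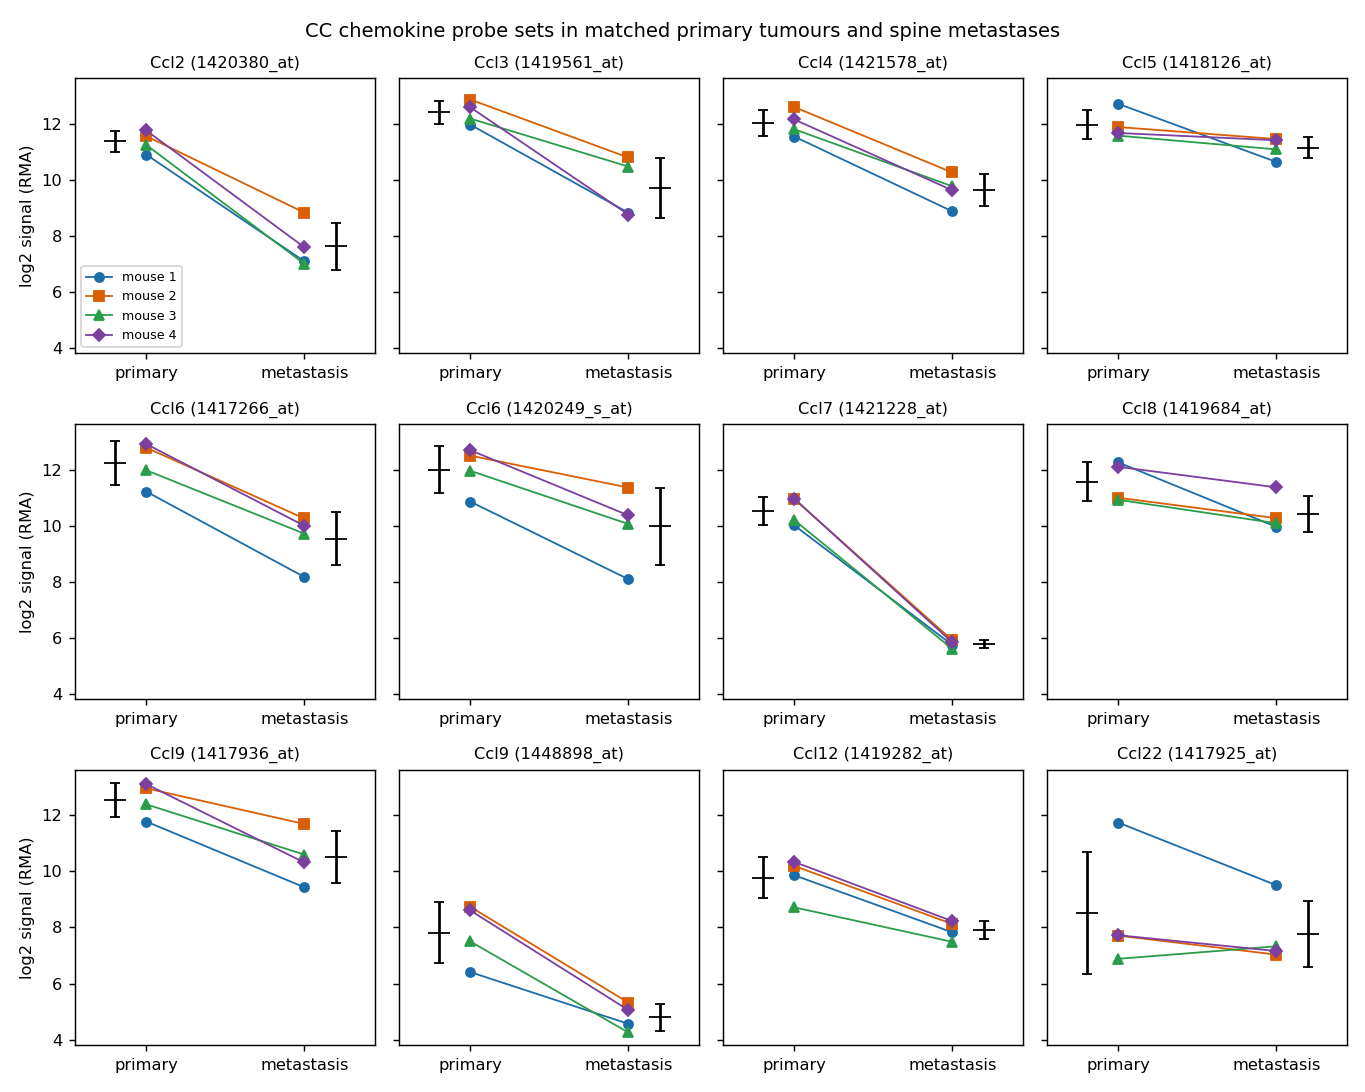
RMA log2 signal (y axis) of the 12 CC chemokine probe sets on the 4 primary and 4 metastasis arrays, with a line for each mouse and, beside the points, the group mean with its SD (n = 4). Ccl7 falls from between 10.01 and 10.96 to between 5.60 and 5.91 in every mouse, whereas Ccl22 is high on both arrays of mouse 1.

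Ccl7, the monocyte chemoattractant that binds Ccr2 and also Ccr1 and Ccr3, had log2 signals of 10.01, 10.95, 10.19 and 10.96 on primary arrays 1 to 4 and 5.74, 5.91, 5.60 and 5.83 on metastasis arrays 1 to 4. The groups were far apart, and the metastasis arrays lay close together (SD 0.13, n = 4). The log2 fold was -4.76 (SE 0.24), a 27.0-fold fall (limma adjusted p = 9e-05), and it was the fourth most negative of all genes. The metastasis values lay close to the array medians of 5.23 to 5.42, so that the size of this fold is not exact.

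Ccl2, the main ligand of Ccr2, had log2 signals of 10.90, 11.56, 11.25 and 11.76 on the primary arrays and 7.10, 8.83, 7.01 and 7.60 on the metastasis arrays. All metastasis arrays were low, and array 2 was the least low. Ccl2 had a log2 fold of -3.73 (SE 0.40), a 13.3-fold fall (limma adjusted p = 0.000977). Ccl12, a rodent monocyte chemoattractant close to Ccl2, had 9.86, 10.19, 8.72 and 10.34 on the primary arrays and 7.83, 8.12, 7.49 and 8.23 on the metastasis arrays. Its groups did not overlap, with primary array 3 nearest to the metastases. The log2 fold of Ccl12 was -1.86 (SE 0.36), a 3.63-fold fall (limma adjusted p = 0.00808), and without metastasis arrays 1 and 3 it missed the threshold (adjusted p = 0.061).

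Ccl8, which lies in the same gene group and in the mouse acts on Ccr8, differed less. Its log2 signals were 12.25, 10.99, 10.92 and 12.09 on the primary arrays and 9.95, 10.26, 10.08 and 11.36 on the metastasis arrays. Each mouse had the lower value in the metastasis, but metastasis array 4 lay above primary arrays 2 and 3, so the groups overlapped. The log2 fold was -1.15 (SE 0.42) and did not pass the test (limma adjusted p = 0.0814). Without metastasis array 4 it did (-1.47, adjusted p = 0.0305).

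Ccl3 and Ccl4, the macrophage inflammatory proteins 1-alpha and 1-beta, both fell. Ccl3 had log2 signals of 11.97, 12.86, 12.18 and 12.59 on the primary arrays and 8.83, 10.79, 10.47 and 8.76 on the metastasis arrays, where arrays 2 and 3 stayed higher than arrays 1 and 4. For Ccl3 the log2 fold was -2.69 (SE 0.49), a 6.44-fold fall (limma adjusted p = 0.0068). Ccl4 had 11.54, 12.59, 11.80 and 12.15 on the primary arrays and 8.87, 10.26, 9.77 and 9.62 on the metastasis arrays, with no overlap and, among the metastases, less spread than Ccl3 (SD 0.57 against 1.07, n = 4 each). For Ccl4 it was -2.39 (SE 0.33), a 5.24-fold fall (limma adjusted p = 0.00217).

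Ccl5, known as RANTES and made by T cells, macrophages and many stimulated cells, had log2 signals of 12.71, 11.88, 11.57 and 11.67 on the primary arrays and 10.64, 11.45, 11.08 and 11.41 on the metastasis arrays. The groups were separate by a narrow margin, and mouse 1 held both the highest and the lowest array. The log2 fold was -0.81 (SE 0.29) and did not pass the test (limma adjusted p = 0.0794). Without mouse 1 it was -0.39 (adjusted p = 0.178).

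Ccl6 and Ccl9 are the rodent chemokines of macrophages and myeloid cells that act through Ccr1, and each had 2 probe sets. For Ccl9 the brighter probe set had log2 signals of 11.78, 12.96, 12.39 and 13.11 on the primary arrays and 9.43, 11.69, 10.60 and 10.32 on the metastasis arrays, so that metastasis array 2 lay just below primary array 1 and the groups were separate. Its log2 fold was -2.05 (SE 0.48), a 4.14-fold fall (limma adjusted p = 0.0176). That call was lost without primary array 2 or 4, without mouse 3 or 4, and without metastasis arrays 1 and 3 (adjusted p = 0.0534, 0.058, 0.0984, 0.114 and 0.0844). The dimmer probe set had 6.41, 8.74, 7.50 and 8.61 on the primary arrays and 4.56, 5.32, 4.26 and 5.06 on the metastasis arrays, whose mean of 4.80 was under the array medians. Its log2 fold was -3.01 (SE 0.51, limma adjusted p = 0.00555 over all named probe sets), a size that is not exact at this signal.

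The 2 probe sets of Ccl6 lay on different sides of the threshold. The brighter one, of the type whose probes match more than 1 transcript (suffix _s_at), had log2 signals of 10.86, 12.50, 11.96 and 12.69 on the primary arrays and 8.09, 11.36, 10.06 and 10.36 on the metastasis arrays, and metastasis array 2 lay above primary array 1. Its log2 fold was -2.03 (SE 0.68, limma adjusted p = 0.0632), and with the mouse as a block it passed (adjusted p = 0.0101). Each of the 4 mice had the lower value in the metastasis. The other had 11.21, 12.78, 11.97 and 12.91 on the primary arrays and 8.17, 10.26, 9.71 and 9.995 on the metastasis arrays, with no overlap. This probe set fell by 2.69 on the log2 scale (SE 0.52, limma adjusted p = 0.00957 over all named probe sets), or 6.44-fold. That call was lost without mouse 3 or mouse 4 (adjusted p = 0.065 and 0.053).

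Ccl22, which draws T cells through Ccr4, was high in mouse 1 at both sites. Its log2 signals were 11.74, 7.71, 6.88 and 7.72 on the primary arrays and 9.51, 7.03, 7.33 and 7.16 on the metastasis arrays. Both arrays of mouse 1 were the highest of their group. The log2 fold was -0.76 (SE 1.04) and did not pass the test (limma adjusted p = 0.619). Its sign turned without primary array 1 (0.32, adjusted p = 0.748), and without both arrays of mouse 1 the fold was -0.27 (adjusted p = 0.49). Of 11 dendritic cell markers, 8 were highest of the primary arrays on primary array 1 and 3 were lowest there (Cd83, Siglech and Xcr1). The log2 of their summed signal was 14.06 on that array and 13.21 to 13.34 on the other primary arrays. Of 13 T and NK cell markers, 10 were highest and 3 lowest on the same array, with a sum of 10.45 against 9.86 to 9.91. Of 13 macrophage and monocyte markers, 0 were highest and 9 lowest there. Among the single markers, chosen after their values were seen, Ccr7, the receptor that guides mature dendritic cells to lymph nodes, had 11.21 there and 7.56 to 8.33 on the other primary arrays, and Fscn1, an actin bundler of mature dendritic cells, had 12.80 against 11.03 to 11.11. Cd3g, a chain of the T cell receptor complex, had 6.64 against 4.53 to 4.79. On metastasis array 1 the dendritic and the T and NK cell sums were the lowest of their group (12.11 and 10.22). There Ccr7 had 8.82, within the 8.15 to 10.02 of the other metastasis arrays, and Fscn1 had 10.82, below their 11.28 to 12.42. Ccl17, the other ligand of Ccr4, was looked at after its values were seen. It had 8.13, 7.23, 6.94 and 7.06 on the primary arrays and 10.05, 7.18, 7.91 and 8.24 on the metastasis arrays, so that mouse 1 was again the highest at both sites. The part of these cells in the Ccl22 values was not tested.

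**Figure D2:**
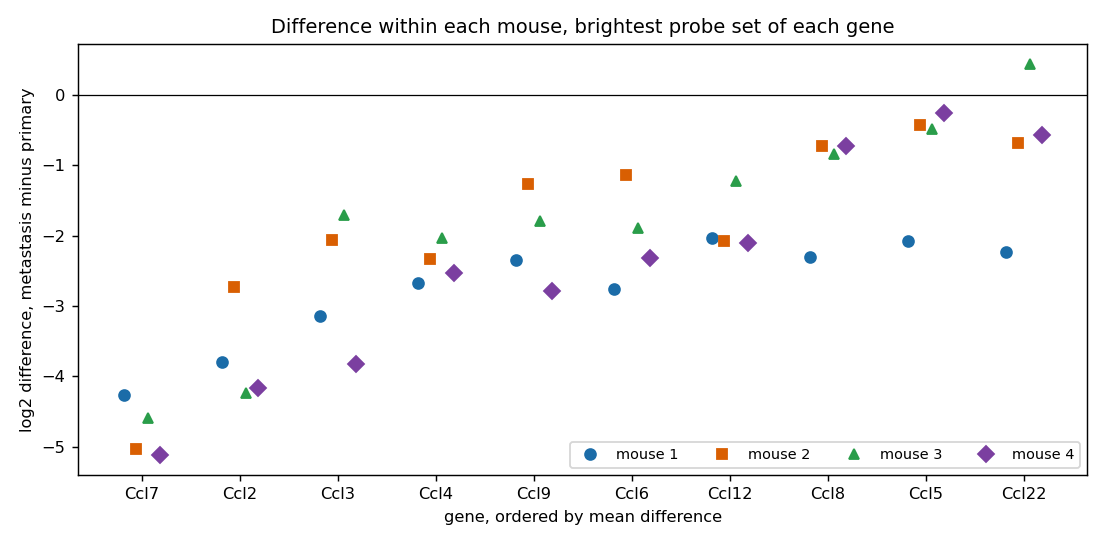
Difference in log2 signal between metastasis and primary tumour within each of the 4 mice (y axis) for the 10 CC chemokine genes (x axis, ordered by mean difference), brightest probe set of each. Of the 40 differences 39 lie below 0, and for Ccl4, Ccl6, Ccl8, Ccl5 and Ccl22 mouse 1 lies lowest.

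Within mice, 39 of the 40 differences were below 0, the exception being Ccl22 in mouse 3 (0.45). All 4 mice were lower for 9 of the 10 genes, against 20.4% of all genes. The median difference over the 10 genes was -2.51, -1.67, -1.75 and -2.43 in mice 1 to 4, where the median of all genes was -0.01, 0.01, 0.08 and 0.17. The genes did not move by the same amount in each mouse. Ccl4 ran from -2.67 to -2.03 and Ccl7 from -5.12 to -4.27. Ccl5 differed by -2.07 in mouse 1 and by -0.26 to -0.49 in the others, and Ccl8 by -2.30 in mouse 1 and by -0.73 to -0.84 in the others.

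Ordered by fold, the genes ran from Ccl7 through Ccl2, Ccl3, Ccl4, Ccl9, Ccl6, Ccl12, Ccl8 and Ccl5 to Ccl22. Neighbours in this order were compared by the difference of their log2 values on each array. No neighbouring pair of the 9 passed after Benjamini-Hochberg adjustment. The smallest exact permutation p that 4 against 4 arrays allow is 0.0286, and Ccl7 to Ccl2 reached it. Adjusted over the 9 pairs it became 0.257, so a single pair could not pass, and a miss does not show equal folds. The widest steps were 1.02 from Ccl7 to Ccl2 (SE 0.38, exact permutation p = 0.0286, adjusted p = 0.257, the same sign in 4 of 4 mice) and 1.05 from Ccl2 to Ccl3 (SE 0.50, exact permutation p = 0.0571, adjusted p = 0.257, 4 of 4 mice). The order among Ccl3, Ccl4, Ccl9, Ccl6 and Ccl12 is not resolved, with steps of 0.02 to 0.34 (adjusted p = 0.579 to 0.943, exact permutation tests). By position, the group that holds Ccl2 had 3 of 4 genes called lower with folds from -4.76 to -1.15, and the group that holds Ccl3 had 3 of 5 with folds from -2.69 to -0.81.

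**Figure D3:**
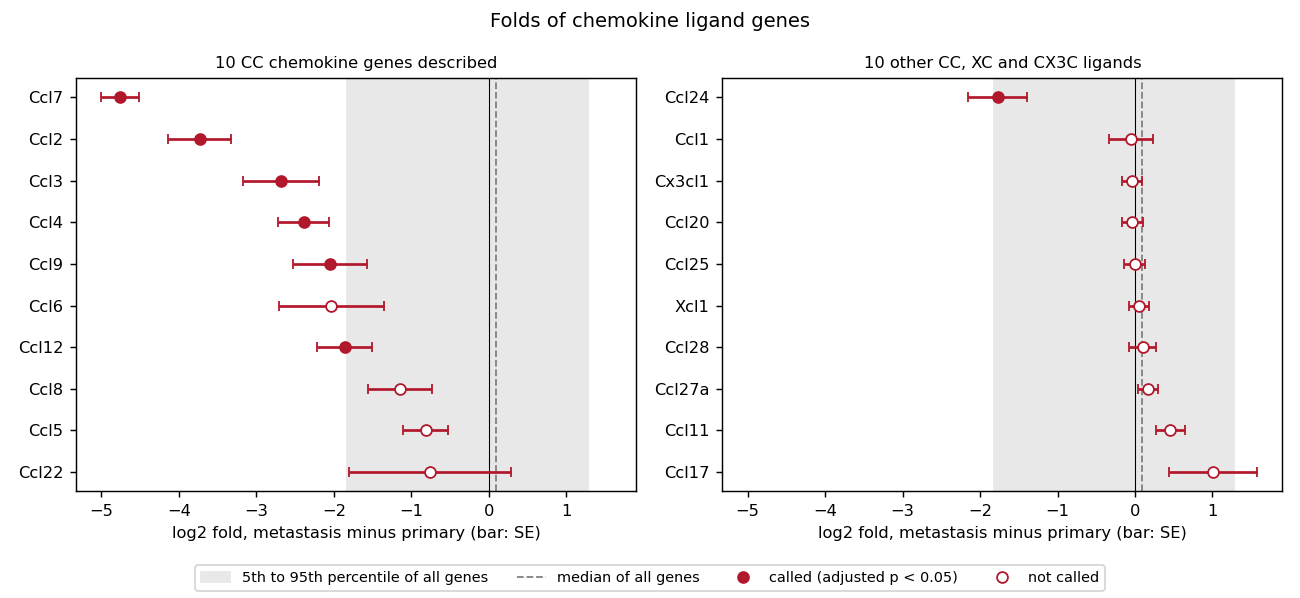
Log2 fold, metastasis minus primary (x axis), with its SE, for the 10 CC chemokine genes (left) and 10 other CC, XC and CX3C ligand genes (right), with filled points for genes past the threshold. The grey band spans the 5th to 95th percentile of all genes, -1.83 to 1.28, and 7 of the 10 CC chemokine genes lie below it.

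The other ligands of the CC, XC and CX3C families were mostly dim. Of 10 measured, 1 fell, 0 rose and 9 missed the threshold, with a median log2 fold of 0.02, near the 12.1% of all genes called lower. The gene that fell was Ccl24, an eosinophil chemoattractant made by macrophages, with log2 signals of 7.41, 9.20, 8.56 and 8.57 on the primary arrays and 6.01, 6.80, 7.002 and 6.83 on the metastasis arrays. Its log2 fold was -1.77 (SE 0.38, limma adjusted p = 0.013), and the call was lost without mouse 3, without mouse 4 and without metastasis arrays 1 and 3 (adjusted p = 0.075, 0.0748 and 0.0623). Ccl11, Ccl25, Ccl27a and Xcl1 lay under the array median on all 8 arrays. Ccl11, whose gene sits between Ccl7 and Ccl12, had 3.97 to 4.46 on primary and 4.36 to 4.99 on metastasis arrays. Ccl1, the gene next to Ccl8, had a log2 fold of -0.05 (SE 0.28).

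**Figure D4:**
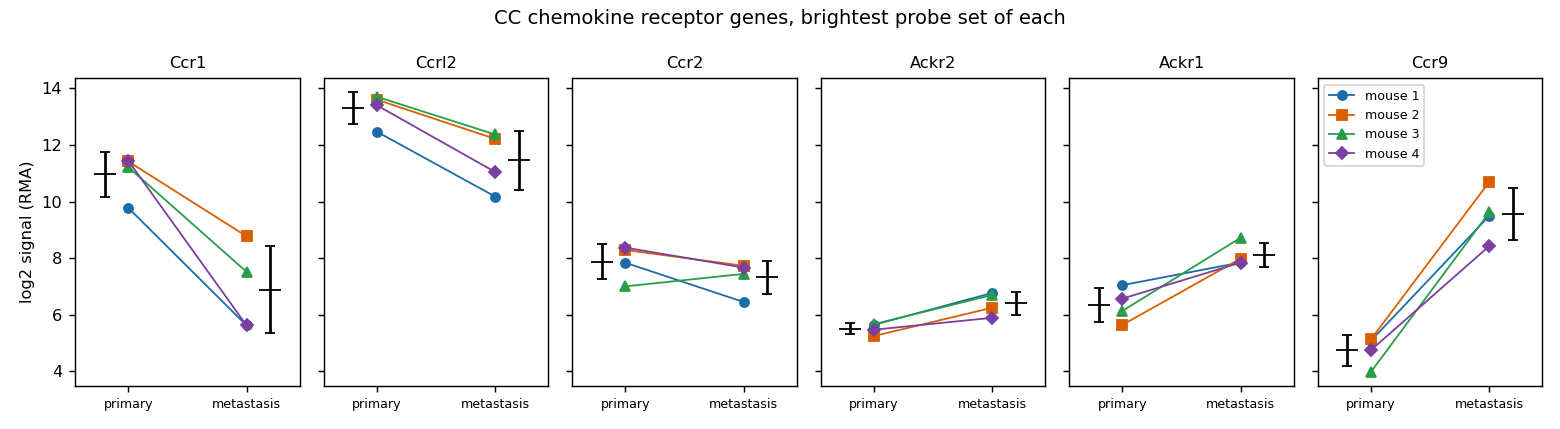
RMA log2 signal (y axis) of 6 CC receptor genes on the primary and metastasis arrays, with a line for each mouse and the group mean with its SD (n = 4) beside the points. Ccr1 and Ccrl2 lie lower in metastases, Ackr2, Ackr1 and Ccr9 lie higher, and Ccr2 overlaps between the groups.

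Of 14 CC receptor and scavenger genes measured, 2 fell, 3 rose and 9 did not pass the test, with a median log2 fold of 0.32. Of all genes, 12.1% were called lower and 9.72% higher. The count of 5 fell to 3 without primary array 2, 3 or 4 or without mouse 2 or 4, and to 2 without mouse 3. Ccr1, the receptor of Ccl3, Ccl5, Ccl6, Ccl7 and Ccl9 on monocytes, macrophages and neutrophils, had log2 signals of 9.77, 11.42, 11.22 and 11.44 on the primary arrays and 5.62, 8.77, 7.51 and 5.62 on the metastasis arrays. The groups were separate, and metastasis arrays 1 and 4 were the lowest. Ccr1 had a log2 fold of -4.08 (SE 0.73, limma adjusted p = 0.00631; 0.0508 without mouse 4). A dimmer probe set of Ccr1 gave -1.19 (SE 0.69) and did not pass (limma adjusted p = 0.254). Ccrl2, an atypical receptor of activated myeloid cells that presents chemerin, fell by 1.84 on the log2 scale (SE 0.51, limma adjusted p = 0.0326), a call lost without primary array 2, 3 or 4, without metastasis array 4, without mouse 2, 3 or 4, and without metastasis arrays 1 and 3 (adjusted p = 0.0564 to 0.165).

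Ccr2, the receptor of Ccl2, Ccl7 and Ccl12, did not pass the test. Its brightest probe set had log2 signals of 7.84, 8.29, 7.001 and 8.37 on the primary arrays and 6.45, 7.73, 7.44 and 7.66 on the metastasis arrays, which overlapped, with a log2 fold of -0.55 (SE 0.38, limma adjusted p = 0.321). Its 3 other probe sets had folds from -0.40 to 0.07, none past the threshold. Ccr4, the receptor of Ccl22, was under the array median on all 8 arrays.

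Ccr9, the receptor of Ccl25 on thymocytes, gut-homing lymphocytes and plasmacytoid dendritic cells, had log2 signals of 5.08, 5.13, 3.98 and 4.75 on the primary arrays and 9.49, 10.69, 9.61 and 8.43 on the metastasis arrays. Every metastasis array was far above every primary array, and the primary arrays lay under the array medians. Ccr9 had a log2 fold of 4.82 (SE 0.46, limma adjusted p = 0.000659), measured on a probe set of the type whose probes may bind other sequences (suffix _x_at). The 4 other probe sets of Ccr9 had folds from -0.30 to 1.47, none past the threshold. Siglech, a marker of plasmacytoid dendritic cells, had a log2 fold of 1.27 (SE 0.14, limma adjusted p = 0.00114). It was the only marker called higher of the 11 dendritic cell markers, whose median log2 fold was 0.02. Cd83 (-2.27) and Itgax (-1.49) were called lower. The part of these cells in the Ccr9 values was not tested. Ackr1, which binds chemokines on endothelium and red cells without signalling, rose by 1.75 (SE 0.33, limma adjusted p = 0.00738), a call lost without mouse 3 (adjusted p = 0.061). The third gene higher was Ackr2, a scavenger of CC chemokines, with a log2 fold of 0.89 (SE 0.22, limma adjusted p = 0.0226), named here to complete the count. Its dimmer probe sets gave 0.39 and -0.02, neither past the threshold.

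Of 14 CXC ligands, the neighbouring chemokine family, 6 fell and 0 rose, with a median log2 fold of -1.68. Over all genes 12.1% were called lower and 9.72% higher. Cxcl5, a neutrophil chemoattractant, had a log2 fold of -3.38 (SE 0.48) and Cxcl9, an interferon gamma target that draws T cells, of -3.17 (SE 0.44), each lower in 4 of 4 mice (limma adjusted p = 0.00254 and 0.00223). Another probe set of Cxcl9 gave -0.62 and did not pass (limma adjusted p = 0.124).

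Of 19 genes for cytokines that induce CC chemokines and for NF-kappaB control, 11 fell, 2 rose and 6 missed the threshold, with a median log2 fold of -1.07. The shares over all genes were 12.1% called lower and 9.72% higher. Osm, a cytokine related to leukemia inhibitory factor of neutrophils and macrophages, had log2 signals of 10.10 to 11.63 on primary and 7.36 to 8.38 on metastasis arrays and fell by 3.01 (SE 0.35, limma adjusted p = 0.00124). Il1b, the inflammasome cytokine that activates NF-kappaB, fell by 2.90 (SE 0.64, limma adjusted p = 0.0145), a call lost without mouse 3, without mouse 4 and without metastasis arrays 1 and 3 (adjusted p = 0.095, 0.0946 and 0.0864). Nfkb2 and Nfkbie, an NF-kappaB subunit and an inhibitor, had log2 folds of 0.83 and 0.87 on their brightest probe sets, but -1.15 (limma adjusted p = 0.00719) and -0.82 (0.0519) on the other, so their direction rests on the probe set. The call of Nfkb2 was also lost without primary array 1, 2 or 3, without metastasis array 3 or 4, and without any 1 mouse (adjusted p = 0.0565 to 0.146). The 13 calls of this list were 6 or 7 without any 1 primary array, 6 without metastasis array 3, and 6, 4 and 5 without mouse 1, 3 and 4.

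**Figure D5:**
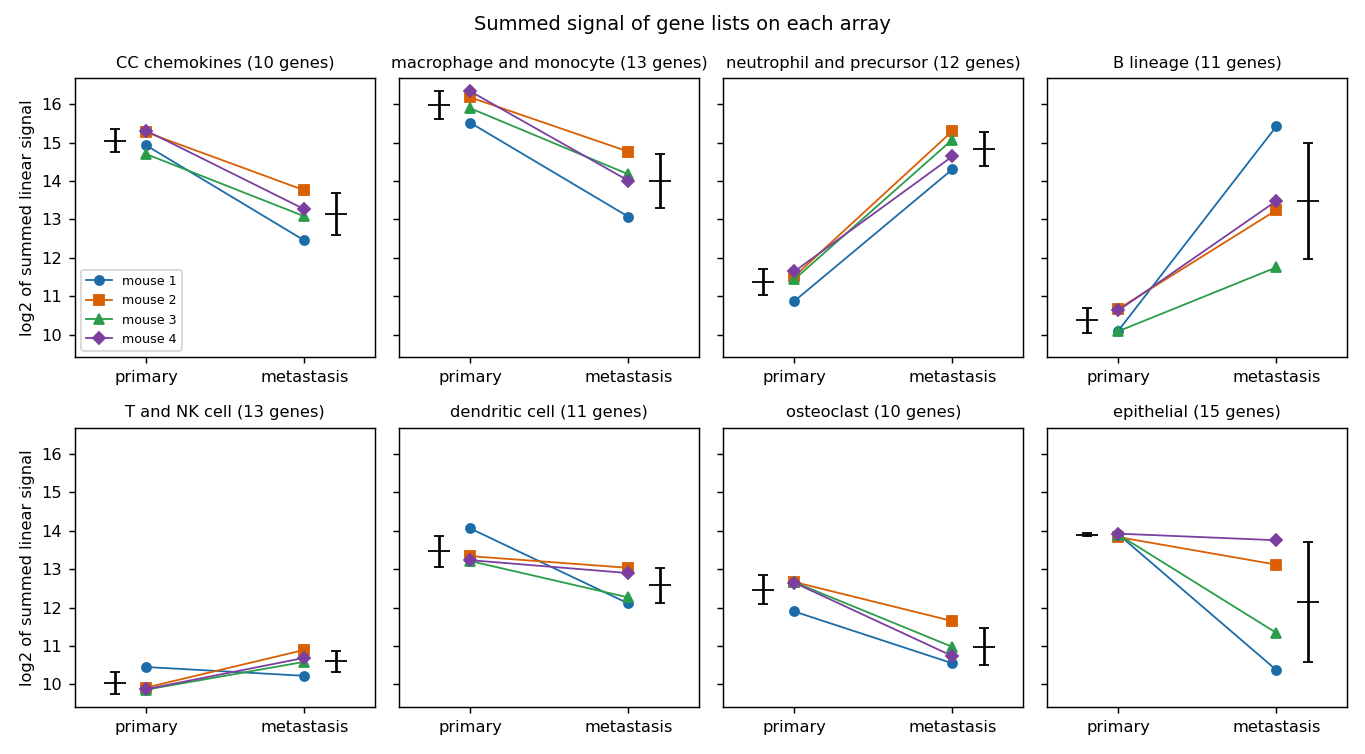
Log2 of the summed linear signal (y axis) of the 10 CC chemokine genes and of 7 marker lists on each primary and metastasis array, brightest probe set of each gene, with a line for each mouse and the group mean with its SD (n = 4). The CC chemokine, macrophage, dendritic cell, osteoclast and epithelial sums are each lower on every metastasis array than on any primary array. The neutrophil and B lineage sums are higher, and the T and NK cell sums overlap.

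Markers of several leukocyte types moved between the groups as well, beside 12.1% of all genes called lower and 9.72% called higher. Of 13 macrophage and monocyte markers, 12 were lower and 0 higher, and the log2 of their summed signal ran from 15.52 to 16.34 on primary and from 13.07 to 14.77 on metastasis arrays. The sum over the 10 CC chemokine genes ran from 14.70 to 15.31 and from 12.46 to 13.76. Metastasis array 2 was the highest and array 1 the lowest metastasis array in both sums. The same held for the neutrophil, T and NK cell, dendritic cell and osteoclast sums, but not for the B lineage or epithelial sums. Metastasis array 3 lay below array 4 in the CC chemokine sum (13.08 and 13.27) and above it in the macrophage sum (14.18 and 14.01). The lowest primary sum was on array 3 for the CC chemokines and on array 1 for the macrophage markers. None of the macrophage markers was under the array median on all 8 arrays. Cd68, a lysosomal protein of macrophages, had 10.53, 12.18, 11.45 and 12.04 on the primary arrays and 7.37, 9.80, 7.97 and 7.23 on the metastasis arrays. Neutrophil and precursor markers were higher in 7 of 12 cases (sums 10.87 to 11.64 and 14.31 to 15.30) and B lineage markers in 6 of 11 (10.09 to 10.67 and 11.75 to 15.43), with 0 lower in either. Of 10 osteoclast markers, 2 fell and 1 rose, and Calcr and Oscar were under the array median on all 8 arrays. The osteoclast sums ran from 11.90 to 12.67 on primary and from 10.55 to 11.65 on metastasis arrays. Of 13 T and NK cell markers 2 rose and 0 fell, and of 11 dendritic cell markers 2 fell and 1 rose, counts near the shares of all genes. The T and NK cell sums overlapped (9.86 to 10.45 on primary and 10.22 to 10.89 on metastasis arrays). The dendritic cell sums were lower on every metastasis array (13.21 to 14.06 and 12.11 to 13.03). Of 15 epithelial markers 3 fell and 0 rose, with sums of 13.84 to 13.93 on primary and 10.37 to 13.75 on metastasis arrays. The part of these cell types and of the RNA controls in the CC chemokine falls was not tested.

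Among genes outside all these lists whose mean signal lay above the median of all genes, the 5 whose values over the 8 arrays lay closest to the median profile of the 10 CC chemokine genes were Pik3cb, a catalytic subunit of phosphoinositide 3-kinase, Maff, a small basic leucine zipper factor, Plod1, a collagen lysyl hydroxylase, Blcap and Sdc3, a cell surface heparan sulphate proteoglycan. Their root mean square differences from that profile were 0.22, 0.22, 0.24, 0.25 and 0.28 on the log2 scale over 8 arrays, each gene centred on its primary mean. Their log2 folds ran from -2.23 for Pik3cb to -2.003 for Blcap.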

How the data were processed

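RNA from 4 primary tumours and 4 matched spine metastases was measured on Affymetrix mouse arrays after two-cycle labelling. The deposited values are log2 signals per probe set, made by the authors with RMA per the submitters' processing notes. The RMA version, which arrays were normalized together and any sorting gate are not stated in the labels. The 45101 probe sets, 64 of them controls, were named by the platform annotation: 34945 had 1 symbol, 932 several and 9160 none listed. Symbols and sequences were taken from RefSeq (GRCm38.p6).

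Each gene was represented by its brightest probe set (18193 genes), and all probe sets with 1 symbol were fitted separately. limma 3.58.1 (R 4.3.3; lmFit and eBayes, two-sided) compared the unblocked groups; p-values were adjusted by Benjamini-Hochberg over all features of a fit, at a threshold of 0.05; it was tested on simulated data. Single values were compared by exact permutation (scipy 1.17.1). The precision is limited by 4 arrays per group, and signals near the array median can understate folds. From each other list of ligands, receptors or inducers the 2 largest rises and falls past the threshold were named. Marker lists were given by counts and sums, and Krt8, Krt18, Cd68, Siglech, Cd83, Itgax, Calcr and Oscar were named from them outside that rule. Cldn4 and Cdh1 were named because their values ordered the metastasis arrays unlike Krt8. Ackr2, Ccl17 and the markers beside Ccl22 were named after their values were seen. The alternatives were the mouse as a block, scaling to the 75th percentile, quantile normalization, a filter on dim features, an intensity trend, the actin control as a covariate, other choices of probe set, and leaving out single arrays, single mice, or metastasis arrays 1 and 3.

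Per the series' design text same-numbered arrays come from 1 mouse, so the numbers pair the samples. The deviations of same-mouse arrays from their group means correlated at 0.17, 0.01, 0.02 and -0.11 across genes. The highest correlation of each primary array with another mouse's metastasis array was -0.003, 0.13, 0.09 and 0.21. That was above the same-mouse value for mice 2, 3 and 4, so the values alone do not bear out the pairing. The CC chemokines and all lists were chosen with earlier results of these data known. Protein sequences were not analysed here.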

Additional observations from a re-analysis of the deposited data

Results flagged for a closer look

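In 50 groups of 4 arrays, 3 had 1 array far from the others by Dixon's criterion (the gap to the nearest array over the range), which chance gives in about 1 of 20 groups. Ccl22, the Ccr4 ligand, had a log2 signal of 9.51 on metastasis array 1, where the other metastasis arrays had 7.03 to 7.33. Ackr1, the atypical receptor of endothelium and red cells, had 8.72 on metastasis array 3, where the others had 7.84 to 7.98. Ccr1 had 9.77 on primary array 1, where the others had 11.22 to 11.44.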

How the results depend on the processing

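Of 210 recomputed folds of the 10 CC chemokine genes, 189 kept their direction and side of the threshold, 12 lost and 8 gained a call, and 1 turned its sign: Ccl22, at 0.32 without primary array 1 (-1.34 without metastasis array 1, the other end of its leave-one-out range). With the mouse as a replicate block 3284 genes were called, 7 of the 10 CC chemokine genes (Ccl6 was added, adjusted p = 0.0101) and 9 of the 12 probe sets. No other CC chemokine gene changed its call under the block. With the actin covariate, almost collinear with the group (median SE 0.74 against 0.23), the calls were 0 for all genes (2470 at an unadjusted p under 0.05), for the CC chemokine genes and probe sets, for the other ligands, the receptors, the CXC ligands and the inducers, and the fold of Il1b was 0.49. With the most variable probe set of each gene the other ligands had 2 calls, and Nfkb2 and Nfkbie had folds of -1.15 and -0.82. With the mean of the probe sets Nfkb2 had -0.16. Without metastasis arrays 1 and 3 the other ligands had 0 calls and the inducers 4.

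Leaving out 1 array or 1 mouse gave 1405 to 4813 calls over all genes against 3975, with 2612, 2324 and 2236 without primary arrays 2, 3 and 4 and 1405 and 1942 without mice 3 and 4. The CC chemokine genes had 5 to 7 calls, their probe sets 5 to 9, the other ligands 0 to 1, the receptors 2 to 6, the CXC ligands 5 to 7 and the inducers 4 to 14. The causes of these shifts were not tested, beyond the fewer arrays of each such fit. Signals near the array median, as for Ccl7 in metastases, limit how exact a fold is.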

Other observations

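Some genes of the related lists had a dimmer probe set past the threshold while their brightest was not, and they were picked after their values were seen. In the limma fit over all named probe sets, Cx3cl1, the membrane-bound chemokine whose gene lies next to Ccl22, had a log2 fold of -1.46 (adjusted p = 0.0162) on 1 probe set and -0.04, -0.02 and 0.14 on the others. Cxcl1, a neutrophil chemoattractant, had -1.97 (adjusted p = 0.0164) on 1 and -0.58 and -0.34 on the others. Cxcl12, the marrow stromal chemokine, had 1.58 (adjusted p = 0.0197) on 1 and 1.005 and 0.20 on the others. Nfkbia, the inhibitor that NF-kappaB itself induces, had -1.02 (adjusted p = 0.0202) on 1 and 0.26, 0.29, 1.36 and -0.39 on the others, so its direction rests on the probe set.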
